A study of Homo sapiens with 6 samples.

Results

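The replication machinery was followed here through 46 genes, from the proteins that mark replication origins to the enzymes that make deoxynucleotides. Members were taken by gene symbol, current or older, from the platform annotation of the array, and only probe sets assigned to a single gene were used. All 46 were on the array, through 86 of its 54675 probe sets, and all 46 were among the 14828 genes tested, of 19775 named genes in all. The samples were CL1-5, the line labelled highly invasive, with 3 arrays, and CL1-0, the line labelled poorly invasive, with 3 arrays. Both are human lung adenocarcinoma lines from the same parent, CL1, and both were grown in RPMI medium with fetal bovine serum and antibiotics, with no other treatment in the labels. Each group is a single cell line, so every difference below is between CL1-5 and CL1-0 as lines. Total RNA of each repeat, called a biological repeat in the labels, was hybridised to 1 array, and each value is a probe set signal on a linear scale as the authors normalized it.

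DNA is copied once per cell cycle. In G1 the origin recognition complex, ORC, with CDC6 and CDT1 loads the ring-shaped MCM2-7 helicase onto origins, and geminin (GMNN) blocks CDT1 afterwards so that origins are not loaded again. In S phase CDC45 and the GINS complex switch the helicase on. Polymerase alpha with primase starts each strand, the clamp loader RFC places the sliding clamp PCNA, and polymerases delta and epsilon extend the strands. Ribonucleotide reductase, thymidylate synthase and thymidine kinase supply precursors. Many of these genes are transcribed as cells enter S phase under the E2F transcription factors, of which E2F1 is a member here, and their summed transcript level is often read as a sign of proliferation. In RNA of a whole culture, a smaller share of cells in S phase and less transcript per cell cannot be told apart.

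The promoters below show the E2F letters, the short sequence that E2F factors are known to bind, in genes that were lower and in genes that were higher in CL1-5. RefSeq promoters of GRCh38.p14, covering 250 bases before the transcript start and 50 after it, matched 40 of the 46 members, and for a gene with several listed starts the first was taken. MCM4, MCM5, GINS4, POLD3, RPA2 and RPA3 had no entry that was used. Each sequence below runs 5′ to 3′ along the gene's own strand from 175 bases before the start to 25 bases from it, and capitals mark E2F letters. CDC6 lies at chr17:40287704-40287903 on the plus strand, CDC45 at chr22:19479745-19479944 on the plus strand, MCM6 at chr2:135876419-135876618 on the minus strand and RRM1 at chr11:4094510-4094709 on the plus strand, and these 4 genes were lower in CL1-5. MCM2 lies at chr3:127598236-127598435 on the plus strand, MCM3 at chr6:52284718-52284917 on the minus strand and RRM2 at chr2:10122564-10122763 on the plus strand, and these 3 were higher.
CDC6: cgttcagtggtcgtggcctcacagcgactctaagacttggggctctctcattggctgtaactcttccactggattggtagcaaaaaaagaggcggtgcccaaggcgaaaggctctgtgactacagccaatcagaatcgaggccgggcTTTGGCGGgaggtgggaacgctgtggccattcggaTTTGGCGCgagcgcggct
CDC45: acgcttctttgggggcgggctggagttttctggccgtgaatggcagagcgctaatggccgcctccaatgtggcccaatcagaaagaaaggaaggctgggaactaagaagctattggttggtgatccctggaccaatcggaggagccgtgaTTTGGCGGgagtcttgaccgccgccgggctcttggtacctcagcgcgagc
MCM6: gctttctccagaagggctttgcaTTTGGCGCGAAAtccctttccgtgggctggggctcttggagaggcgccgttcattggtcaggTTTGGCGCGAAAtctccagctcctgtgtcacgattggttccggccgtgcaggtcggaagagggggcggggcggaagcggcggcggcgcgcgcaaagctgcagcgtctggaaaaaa
RRM1: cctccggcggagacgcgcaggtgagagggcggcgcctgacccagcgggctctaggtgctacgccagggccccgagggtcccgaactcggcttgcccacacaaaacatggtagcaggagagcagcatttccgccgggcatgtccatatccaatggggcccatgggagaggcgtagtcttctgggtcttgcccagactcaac
MCM2: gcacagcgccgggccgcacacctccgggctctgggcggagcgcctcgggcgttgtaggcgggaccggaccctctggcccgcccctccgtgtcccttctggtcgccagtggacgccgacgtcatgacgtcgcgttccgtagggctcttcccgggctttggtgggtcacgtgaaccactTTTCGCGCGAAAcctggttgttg
MCM3: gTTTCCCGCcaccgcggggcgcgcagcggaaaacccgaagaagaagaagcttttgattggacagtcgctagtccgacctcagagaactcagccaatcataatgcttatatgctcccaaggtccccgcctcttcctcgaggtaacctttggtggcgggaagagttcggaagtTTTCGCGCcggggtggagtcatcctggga
RRM2: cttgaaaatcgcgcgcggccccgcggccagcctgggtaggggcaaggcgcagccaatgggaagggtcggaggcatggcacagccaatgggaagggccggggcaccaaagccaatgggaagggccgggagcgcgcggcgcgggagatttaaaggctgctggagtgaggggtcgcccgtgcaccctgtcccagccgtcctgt

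The capitals are matches to TTTCCCGC, TTTCCCGG, TTTCGCGC, TTTCGCGG, TTTGCCGC, TTTGCCGG, TTTGGCGC or TTTGGCGG, or to the shorter forms TTGGCGC and TTCGCGC, on either strand, and overlapping matches were joined into 1. MCM6 held the palindrome-like run TTTGGCGCGAAA at 2 places and MCM2 the run TTTCGCGCGAAA just after its start, while RRM1 and RRM2 held none of these letters in the stretch shown. The set of 8 words, chosen after the sequences had been read, was found in 22 of 40 member promoters (55%), against 9.06% of 11809 promoters of genes tested and 6.20% of 27305 promoters in the table. Member promoters had a median GC content of 65.3%, against 64.7% for genes tested. The narrower set of TTTGGCGC, TTTCGCGC, TTGGCGC and TTCGCGC was found in 16 of 40 (40%), against 7.88% of genes tested. All 9 promoters of the helicase group that had an entry held the wider letters, and 5 of the 9 (55.6%) held the narrower ones. The wider words were chosen after sequences of this group had been read, so the 9 of 9 is no support for them. These 9 genes included 3 that were higher in CL1-5 (MCM2, MCM3 and MCM7), 3 that were lower (MCM6, MCM10 and CDC45) and 3 that did not pass the test (GINS1, GINS2 and GINS3). Across all members the narrower letters stood in 8 of 14 promoters of genes higher in CL1-5, in 3 of 12 of genes lower and in 5 of 14 of genes that did not pass. The wider letters stood in 9 of 14, 7 of 12 and 6 of 14 of the same promoters, and neither split was tested. CCAAT, on either strand, was found in 23 of 40 (57.5%), against 36.1% of genes tested. These are matches of letters in a window, given as a description.

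**Figure D1:**
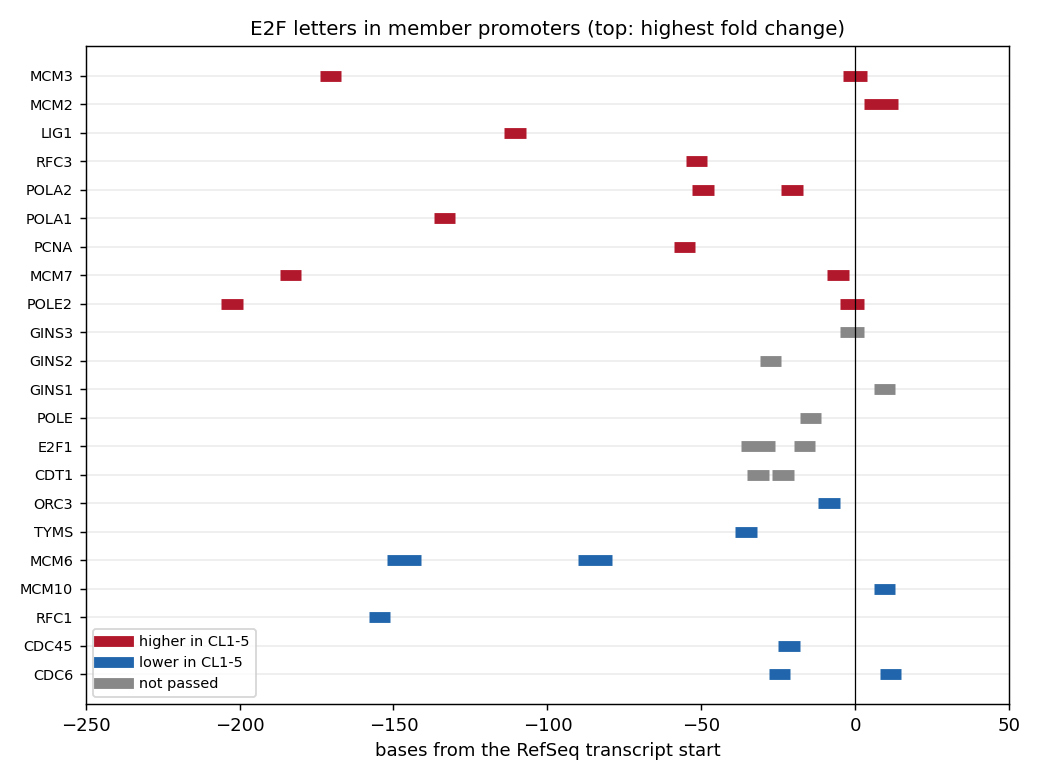
Positions of the wider E2F letters in the 22 member promoters that hold them, 1 gene per row ordered by its log2 fold change of CL1-5 over CL1-0, with the transcript start at 0 on the x axis (bases). Bars are coloured by the result of the test, and bars of all 3 colours lie close to the start.

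The arrays were alike in scale, with median signals between 30.2 and 30.9 units. The 40th percentile of each array, between 19.5 and 20.3 units, was used as a stand-in for background, and no member lay at or under it on all arrays of a line. As a check of the label, 8 of 10 markers of lung adenocarcinoma and lung epithelium exceeded that percentile on all CL1-5 arrays and 9 of 10 on all CL1-0 arrays. KRT19 did so in neither line, and EPCAM in CL1-0 alone. Of markers of other cells, PTPRC and CD14 of leukocytes, CDH5 of endothelium and LUM and PDGFRA of fibroblasts exceeded it on 0 of 6 arrays, and COL3A1 of fibroblasts on 1 CL1-0 array. In all, 2 of 4 leukocyte markers (CD3E and ITGAM) and 2 of 5 fibroblast markers (DCN and COL1A1) exceeded it on all arrays of either line. Of endothelial markers, 3 of 4 did so in CL1-5 (PECAM1, VWF and CLDN5) and 2 of 4 in CL1-0 (PECAM1 and VWF). Since many markers of other cells passed this percentile too, it cannot tell cell types apart, and the label was not settled by it. RNA quality, as the log2 ratio of 3′ to 5′ signal for ACTB, was 0.54 ± 0.32 in CL1-5 and 0.71 ± 0.40 in CL1-0 (SD, n = 3 each; exact two-sided permutation p = 0.5, with 0.1 the smallest p possible). The part of RNA quality in the results below was not tested.

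The comparison of CL1-5 with CL1-0 asked which replication genes differ in transcript level between lines of unlike invasiveness that share a parent. The machinery did not move one way. In a limma fit, with p-values adjusted by Benjamini-Hochberg over all genes tested, 15 of the 46 members were higher in CL1-5, 14 were lower and 17 did not pass an adjusted p of 0.05. The 29 members called were 63.0% of 46, against 51.6% of all genes tested, and by direction 32.6% were higher (23.3% of all genes) and 30.4% lower (28.3%). Among genes that exceeded the 60th percentile of the array on at least 3 arrays, 65.2% of the members and 61.6% of 11430 genes were called, so the share of members called lay near that of other bright genes. Large changes were few, since 3 members (6.52%) passed with at least a 2-fold difference, against 16.1% of all genes. These were PRIM2, higher in CL1-5, and CDC6 and CDC45, lower. The median log2 fold change of CL1-5 over CL1-0 was -0.06 over the members and -0.03 over all genes, and the median size of the change, regardless of sign, was 0.36 and 0.32. For 34 members (73.9%) the arrays of one line all lay on one side of those of the other, 17 in each direction, against 58.8% of all genes tested (26.6% with CL1-5 above and 32.2% with CL1-5 below). Of 78 member probe sets tested one by one, 22 were higher and 23 lower, where 46.9% of all 28152 probe sets were called. Fold changes are on the scale of log2(signal + 6.85), n = 3 arrays per line throughout.

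**Figure D2:**
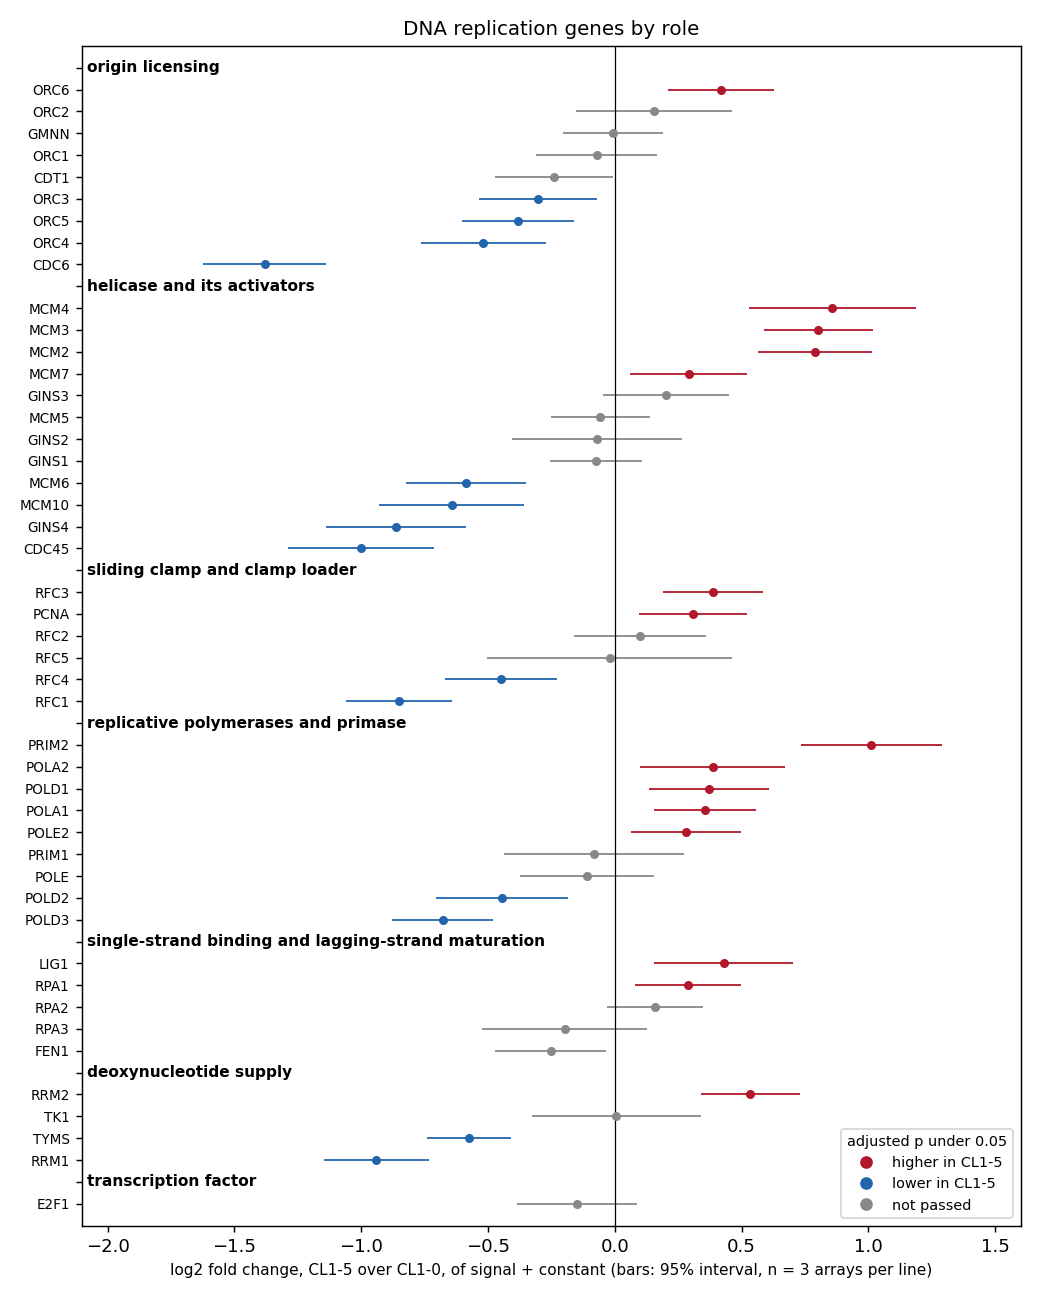
Log2 fold change of CL1-5 over CL1-0 for the 46 members, grouped by role, with 95% intervals from limma (n = 3 arrays per line). Points right of 0 are higher in CL1-5, and the licensing, helicase, clamp loader, polymerase and deoxynucleotide groups each hold genes called in both directions. The members run from CDC6 at -1.38 to PRIM2 at 1.01.

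In origin licensing, 4 of 9 genes were lower in CL1-5, 1 was higher and 4 did not pass, with a median log2 fold change of -0.24, where 28.3% of all genes were lower. CDC6, the ATPase that joins ORC to load the helicase, had 123, 138 and 131 signal units on the CL1-5 arrays of repeats 1, 2 and 3, against 387, 357 and 313 on the CL1-0 arrays. The CL1-5 arrays lay close together and all far below the CL1-0 arrays, and the log2 fold change of -1.38 (SE 0.11, adjusted p = 7.5e-06) was the largest in size among the members. Its other probe set gave -1.65. ORC itself split. ORC4 (-0.52, adjusted p = 0.0033), ORC5 (-0.38, adjusted p = 0.0096) and ORC3 (-0.30, adjusted p = 0.034) were lower, ORC6 (0.42, adjusted p = 0.0044) was higher, and ORC1 (-0.07) and ORC2 (0.15) did not pass. The 1 probe set for ORC6 is of a type whose probes can match further transcripts. ORC3 no longer passed when repeat 2 or 3 of CL1-5 was dropped (adjusted p = 0.14 and 0.077) or when repeat 1 or 2 of CL1-0 was dropped (0.10 and 0.11). The brightest ORC2 probe set did not pass, while its dimmer one did (0.38, adjusted p = 0.014 over all probe sets).

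The pair that sets the licensing window differed little. CDT1, the helicase loading factor, had 130, 146 and 153 units in CL1-5, against 159, 177 and 175 in CL1-0. The lines did not overlap, yet the log2 fold change of -0.24 (95% interval -0.47 to -0.01) did not pass, with an adjusted p of 0.079, and in the fit that paired arrays by repeat number it passed (0.024). Its other probe set, of the type that can match further transcripts, gave 0.02. Geminin, the inhibitor of CDT1, had 1153, 1115 and 1043 units in CL1-5, against 1180, 1139 and 1012 in CL1-0. These values overlapped fully, and the interval of the log2 fold change ran from -0.20 to 0.19. GMNN and CDC6 therefore differed in their log2 fold changes by 1.57, 1.29 and 1.26 in repeats 1, 2 and 3. Such gaps set arrays of equal number against each other, though the labels do not say that equal numbers share a day. This and the other pairs of genes set against each other were chosen after their values were seen.

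The helicase group was split, with 4 of 12 genes higher, 4 lower and 4 not passed, where 23.3% of all genes were higher and 28.3% lower. MCM2, MCM3 and MCM4, subunits of the hexameric ring, rose. MCM2 had 711, 703 and 856 units in CL1-5, against 439, 416 and 445 in CL1-0 (log2 fold change 0.79, SE 0.10, adjusted p = 1.5e-04). MCM3 had 748, 704 and 641 units in CL1-5, against 425, 398 and 368 in CL1-0 (0.80, SE 0.09, adjusted p = 1.1e-04). MCM4 had 566, 520 and 443 units in CL1-5, against 330, 278 and 230 in CL1-0 (0.86, SE 0.14, adjusted p = 9.8e-04). For each of these 3 genes every CL1-5 array lay above every CL1-0 array. Of 5 MCM4 probe sets tested, another was higher too (0.62), and the other three did not pass, at 1.01, 0.17 and -0.07.

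MCM6, a subunit of the same ring, fell. It had 657, 588 and 634 units in CL1-5, against 1041, 983 and 822 in CL1-0, a log2 fold change of -0.59 (SE 0.10, adjusted p = 0.0013) with no overlap between the lines. MCM5 had 704, 727 and 725 units in CL1-5 and 820, 729 and 700 in CL1-0, which overlap, and its interval ran from -0.25 to 0.14. MCM7 (0.29, adjusted p = 0.040) passed as higher. In the fit over all probe sets its dimmer probe set was higher (0.37, adjusted p = 0.015), and its brightest just missed the threshold (adjusted p = 0.053). MCM7 no longer passed when any 1 of the CL1-5 arrays was dropped (adjusted p = 0.066, 0.13 and 0.075 for repeats 1, 2 and 3), when CL1-0 repeat 3 was dropped (0.083), or in repeats 1 and 2 alone (0.064). The gap between the log2 fold changes of MCM2 and MCM6 was 1.34, 1.48 and 1.30 in repeats 1, 2 and 3 (mean 1.38 ± 0.09, SD, n = 3, arrays paired by number). Subunits of a ring that works with 1 copy of each thus differed in the direction of their transcript change, which says nothing of protein levels.

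Factors that switch the ring on were lower or did not pass. CDC45, which with GINS switches the ring on, had 127, 122 and 104 units in CL1-5, against 273, 249 and 209 in CL1-0. Every CL1-5 array was well below the lowest CL1-0 array, at -1.0 on the log2 scale (SE 0.13, adjusted p = 1.7e-04). GINS4, a subunit of the GINS complex, had 118, 99.4 and 122 units in CL1-5, against 211, 188 and 236 in CL1-0 (-0.86, SE 0.12, adjusted p = 3.3e-04), and its other tested probe set was lower as well (-0.40). Its partners GINS1 (-0.08), GINS2 (-0.07) and GINS3 (0.20) did not pass, though GINS3 passed in the fit paired by repeat (adjusted p = 0.047) and through its other probe set (0.42, adjusted p = 0.014 over all probe sets). MCM10, needed for the loaded helicase to start moving, was lower at -0.64 (adjusted p = 0.0022), and its other 2 probe sets were lower at -0.82 and -0.85.

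**Figure D3:**
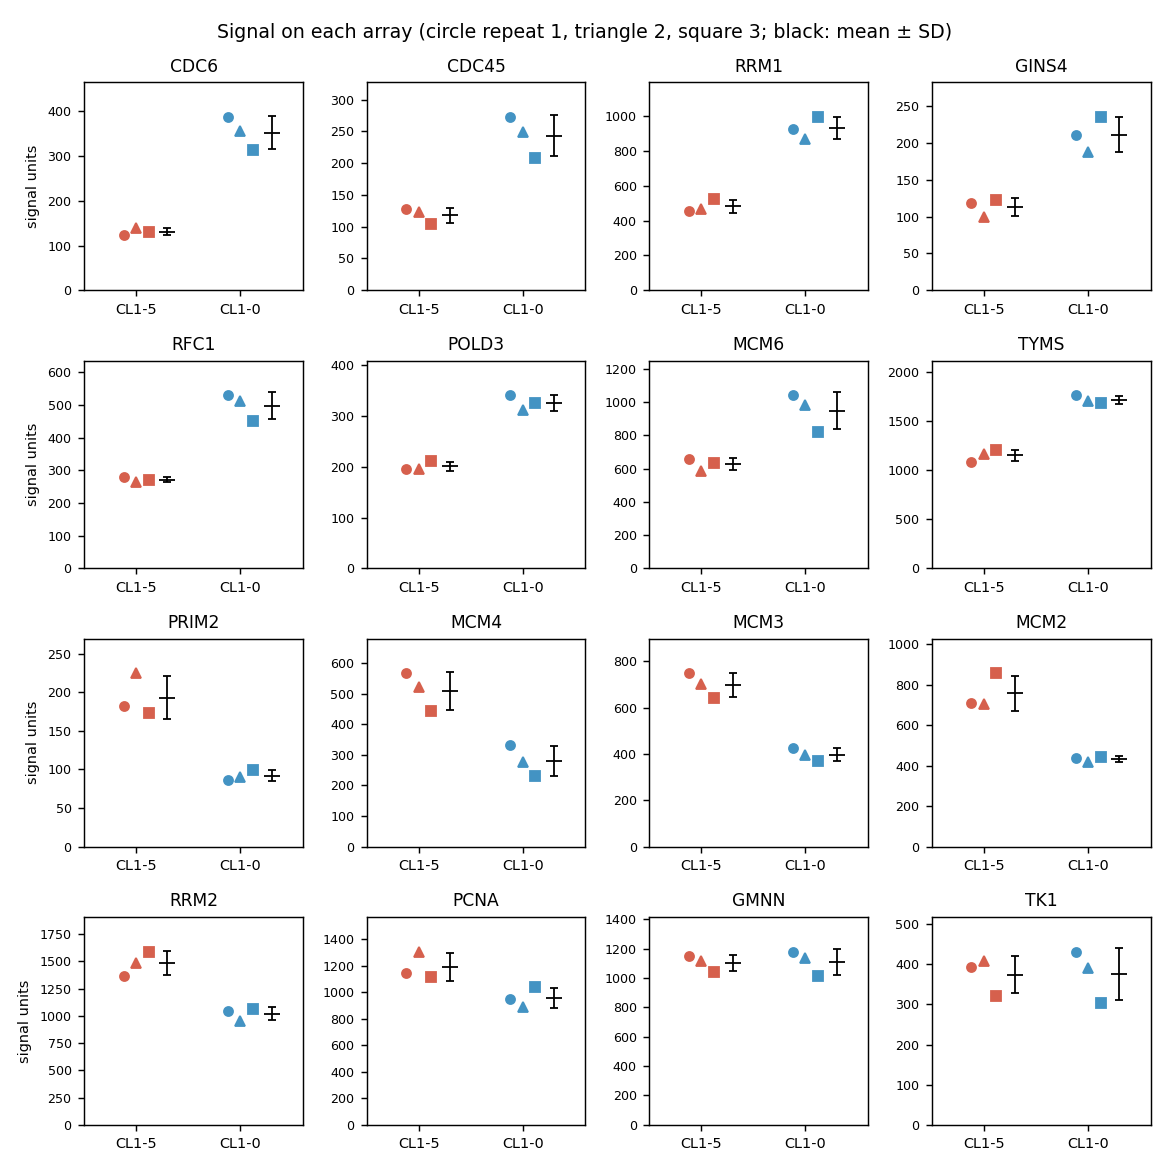
Signal (units, linear axes from 0) of 16 members on each array, CL1-5 left and CL1-0 right in each panel, with repeats 1, 2 and 3 as circle, triangle and square and the mean ± SD in black. Each gene is shown through the probe set that represents it. The first 8 panels show genes lower in CL1-5 and the next 6 genes higher in CL1-5, all with lines that do not overlap. The lines overlap for GMNN and TK1. The dimmer probe set of POLD3, not shown, was higher in CL1-5.

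The sliding clamp rose slightly and its loader split. PCNA, the ring that tethers polymerases to DNA, had 1149, 1307 and 1115 units in CL1-5, against 952, 889 and 1039 in CL1-0. The lines did not overlap, but the nearest arrays were close, and the log2 fold change was 0.31 (SE 0.09, adjusted p = 0.022). PCNA missed the threshold when repeat 2 of CL1-5 was dropped (adjusted p = 0.10) or when repeat 1 or 2 of CL1-0 was dropped (0.061 and 0.094). RFC1, the large subunit of the clamp loader, had 280, 264 and 271 units in CL1-5, against 530, 511 and 451 in CL1-0. The CL1-5 arrays were tightly grouped and all far below, at -0.85 (SE 0.09, adjusted p = 6.4e-05), and its other probe set was lower too (-0.51). Among the small subunits RFC4 was lower (-0.45, adjusted p = 0.0040), RFC3 was higher (0.39, adjusted p = 0.0048), and RFC2 (0.10) and RFC5 (-0.02, SE 0.21) did not pass. Another RFC5 probe set was lower (-0.28, adjusted p = 0.050 over all probe sets, just under the threshold). The gap between the log2 fold changes of RFC3 and RFC1 averaged 1.24 ± 0.06 (SD, n = 3 repeats, arrays paired by number).

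Among polymerase and primase genes, 5 of 9 were higher in CL1-5, 2 lower and 2 not passed, with a median log2 fold change of 0.28, where 23.3% of all genes were higher and 28.3% lower. Without CL1-5 repeat 2, or without CL1-0 repeat 2, the same group had 2 higher and 2 lower. In these 2 settings 43.7% and 45.2% of all genes were called in either direction. PRIM2, the large regulatory subunit of primase, had 182, 225 and 173 units in CL1-5, against 86.0, 90.0 and 99.8 in CL1-0. All CL1-5 arrays were far above all CL1-0 arrays, and the log2 fold change of 1.01 (SE 0.12, adjusted p = 1.3e-04) was the highest among the members. PRIM1, the catalytic subunit, had 367, 314 and 275 units in CL1-5, against 405, 336 and 276 in CL1-0, which overlap (-0.08, 95% interval -0.44 to 0.27). The polymerase alpha subunits POLA1 (0.36, adjusted p = 0.0082) and POLA2 (0.39, adjusted p = 0.030) were higher. POLA2 missed it when CL1-5 repeat 1 (adjusted p = 0.098) or 2 (0.070) was dropped, and likewise for each CL1-0 array (0.055, 0.064 and 0.073 for repeats 1, 2 and 3). POLE2, an accessory subunit of polymerase epsilon, was higher (0.28, adjusted p = 0.034), and its catalytic partner POLE did not pass (-0.11). POLE2 missed it when any 1 of the CL1-5 arrays was dropped (adjusted p = 0.090, 0.096 and 0.061 for repeats 1, 2 and 3), when CL1-0 repeat 2 (0.12) or 3 (0.075) was dropped, or in repeats 1 and 2 alone (0.062).

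Polymerase delta, the main lagging-strand enzyme, was divided between its subunits. The catalytic POLD1 was higher (0.37, SE 0.10, adjusted p = 0.015), a call lost without CL1-5 repeat 2 (adjusted p = 0.060) or CL1-0 repeat 2 (0.064). The accessory POLD2 was lower (-0.45, adjusted p = 0.0097). POLD3, an accessory subunit that contacts PCNA, had 196, 195 and 210 units in CL1-5, against 340, 311 and 324 in CL1-0 (-0.68, SE 0.09, adjusted p = 2.0e-04). It was the 1 member whose probe sets were called in opposite directions, since its dimmer probe set was higher in CL1-5 (0.54, adjusted p = 0.019 over all probe sets). With the mean of both probe sets the POLD3 value was -0.07 and did not pass (adjusted p = 0.53), so its direction rests on the choice of probe set.

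**Figure D4:**
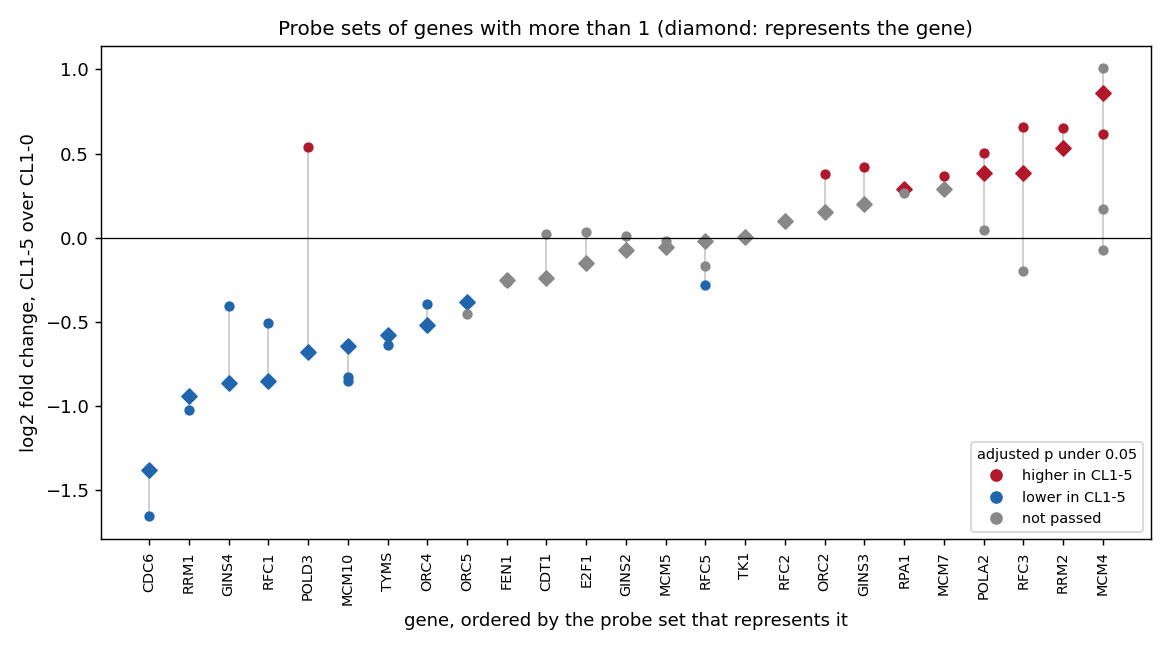
Log2 fold change of CL1-5 over CL1-0 for every tested probe set of the 25 members with more than 1, coloured by the test over all probe sets, with diamonds for the probe set that represents the gene. The CDC6, RRM1, TYMS, RRM2 and MCM10 probe sets lie close together, whereas those of POLD3 are called on opposite sides of 0 and those of MCM4 spread from -0.07 to 1.01.

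Single-strand binding and strand joining showed small changes, with 2 of 5 genes higher, 0 lower and 3 not passed. Of all genes, 23.3% were higher and 28.3% lower. RPA1, the large subunit of the single-strand binding complex, was higher (0.29, adjusted p = 0.028), and RPA2 (0.16) did not pass. RPA3, the small subunit, had 951, 825 and 696 units in CL1-5, against 1082, 964 and 793 in CL1-0. The lines overlap, yet each CL1-5 array lay below the CL1-0 array of the same number, and the value of -0.20 did not pass in the unpaired fit (adjusted p = 0.29) but passed in the fit paired by repeat (0.0057). RPA1 missed the threshold when CL1-5 repeat 1 (adjusted p = 0.092) or 2 (0.088) was dropped, when CL1-0 repeat 2 (0.053) or 3 (0.057) was dropped, or with its probe sets averaged (0.085). LIG1, the ligase that seals Okazaki fragments, was higher (0.43, adjusted p = 0.015). FEN1, the nuclease that trims their flaps, lay just outside the threshold (-0.25, adjusted p = 0.055). FEN1 passed as lower in the fit paired by repeat (adjusted p = 0.012), without CL1-5 repeat 3 (0.046) and without CL1-0 repeat 3 (0.048). It also passed with array weights (0.0067), in repeats 1 and 2 alone (0.011) and with its probe sets averaged (0.037). Quantile normalization (0.040) and the filter at the 60th percentile (0.048) gave the same call.

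In deoxynucleotide supply the subunits of ribonucleotide reductase moved in opposite directions. RRM1, the large subunit that carries the active site, had 456, 466 and 521 units in CL1-5, against 926, 868 and 995 in CL1-0 (-0.94, SE 0.09, adjusted p = 3.0e-05). RRM2, the small subunit that makes the radical and is known to limit the enzyme in S phase, had 1368, 1487 and 1590 units in CL1-5, against 1045, 952 and 1064 in CL1-0 (0.53, SE 0.09, adjusted p = 7.2e-04). Neither gene's lines overlapped, and the other probe set of each went the same way (-1.02 and 0.65). The gap between the log2 fold changes of RRM2 and RRM1 averaged 1.48 ± 0.07 (SD, n = 3 repeats, arrays paired by number). TYMS, thymidylate synthase, had 1089, 1162 and 1205 units in CL1-5, against 1765, 1709 and 1685 in CL1-0, with no overlap (-0.58, SE 0.07, adjusted p = 1.6e-04). TK1, the thymidine kinase of the salvage route, had 393, 408 and 322 units in CL1-5 and 431, 390 and 303 in CL1-0. TK1 thus overlapped fully, and its interval of -0.33 to 0.34 leaves room for a change in either direction.

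E2F1 did not pass. It had 189, 189 and 205 units in CL1-5, against 193, 219 and 238 in CL1-0. These overlap, and the log2 fold change was -0.15 (95% interval -0.39 to 0.09, adjusted p = 0.27), and its other probe set gave 0.04. Among the 12 other genes of the E2F and RB families, 2 were higher (16.7%, against 23.3% of all genes) and 5 lower (41.7%, against 28.3%). Without CL1-5 repeat 2, 1 was higher and 3 lower, since RBL2, E2F8 and RB1 then missed the threshold. With the most variable probe set of each gene, TFDP1 (-0.81, adjusted p = 0.0016) and TFDP2 (-0.82, adjusted p = 5.1e-04), partners of the E2F factors, were lower. Neither passed through its brightest probe set. E2F7, an atypical E2F known to repress S-phase genes, was higher (1.39, SE 0.12, adjusted p = 1.3e-05). E2F8 of the same family went the other way and was lower (-0.44, adjusted p = 0.010). The RB relative RBL2 was higher (0.36, adjusted p = 0.045), a call lost without CL1-5 repeat 2 (0.10) or 3 (0.13), without CL1-0 repeat 1 (0.099) or 2 (0.16) and with median scaling (0.053). E2F2, an activator (-0.78, adjusted p = 2.7e-04), E2F5, which works with the RB relatives (-0.77, adjusted p = 0.0081), and E2F6, a repressor (-0.54, adjusted p = 0.0042), were lower.

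Genes of replication outside the 46 were also split, with 14 of 60 tested higher in CL1-5 (23.3%, against 23.3% of all genes) and 22 lower (36.7%, against 28.3%), and a median log2 fold change of -0.13. Origin firing and licensing regulators had 5 of 16 higher and 6 lower. Without CL1-5 repeat 3, or without CL1-0 repeat 2, 3 were higher, since CDC7 and DBF4B then missed the threshold. Without CL1-5 repeat 1 or 2, 4 were lower, since MCM8 and MCM9 missed it. The cyclins E, partners of CDK2 at the start of S phase, went opposite ways. CCNE2 (1.11, SE 0.18, adjusted p = 7.1e-04) was higher and CCNE1 (-1.01, SE 0.09, adjusted p = 1.5e-05) was lower. The fork component WDHD1 (0.94) and the helicase RECQL4 (0.48) were higher, and DBF4 (-0.72), the activator of the firing kinase CDC7, and the fork protein DONSON (-0.53) were lower. Fork protection and alternative clamp loader genes had 2 of 9 higher and 4 lower. The checkpoint kinase CHEK1 (0.40) and TIPIN (0.31) were higher, and CHTF8 (-0.49), ATR (-0.48) and TIPIN's partner TIMELESS (-0.44) were lower. TIPIN missed the threshold when CL1-5 repeat 2 was dropped (adjusted p = 0.095). CLSPN was lower through its brightest probe set (-0.25, adjusted p = 0.049). That call was lost when any 1 CL1-5 array was dropped (0.085, 0.16 and 0.091 for repeats 1, 2 and 3), and without CL1-0 repeat 2 or 3. With its probe sets averaged CLSPN gave 0.13 (adjusted p = 0.43), and its most variable probe set gave 0.45 (adjusted p = 0.080).

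Of 10 other polymerase, RPA and maturation genes, 4 were higher and 3 lower, where 23.3% of all genes were higher and 28.3% lower. In the fit paired by repeat 7 of these 10 were higher and 3 lower. That fit called more of all genes too, 62.7% in either direction (4145 higher and 5149 lower). POLE4, a small subunit of polymerase epsilon (1.11, SE 0.12), the topoisomerase TOP1 (0.94, SE 0.07) and the RNase H2 subunit RNASEH2C (0.81, SE 0.15) were higher. TOP2B, the topoisomerase II that does not depend on the cell cycle, was lower (-1.35, SE 0.07), as was the nuclease DNA2 (-0.44). TOP2A, the topoisomerase II of dividing cells, was lower through its brightest probe set (-0.37, adjusted p = 0.0020), but not with its probe sets averaged (adjusted p = 0.33). RNASEH2B, another RNase H2 subunit, did not pass through its brightest probe set (0.26), but was lower through its most variable one (-1.48, adjusted p = 6.5e-05) and with its probe sets averaged (-0.29, adjusted p = 0.022). In histone supply, 0 of 6 genes were higher and 3 lower (50%, against 28.3% of all genes). The largest change was in the chaperone ASF1A, which averaged 523 units in CL1-5 and 2894 in CL1-0 (-2.45, SE 0.11, adjusted p = 2.4e-07). The histone mRNA binding protein SLBP (-0.67) and the chaperone NASP (-0.53) were lower as well. Among other nucleotide enzymes 1 of 7 tested was higher and 1 lower. In the fit paired by repeat 2 were higher and 3 lower, where 62.7% of all genes were called. SAMHD1, which breaks down deoxynucleotides and is known to be induced by interferon in several cell types, averaged 970 units in CL1-5 and 127 in CL1-0 (2.88, SE 0.14, adjusted p = 3.9e-07). DTYMK, thymidylate kinase, was lower (-0.28, adjusted p = 0.029), a call lost without CL1-5 repeat 2 (0.11) or 3 (0.072) and without CL1-0 repeat 1 (0.10) or 2 (0.075).

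**Figure D5:**
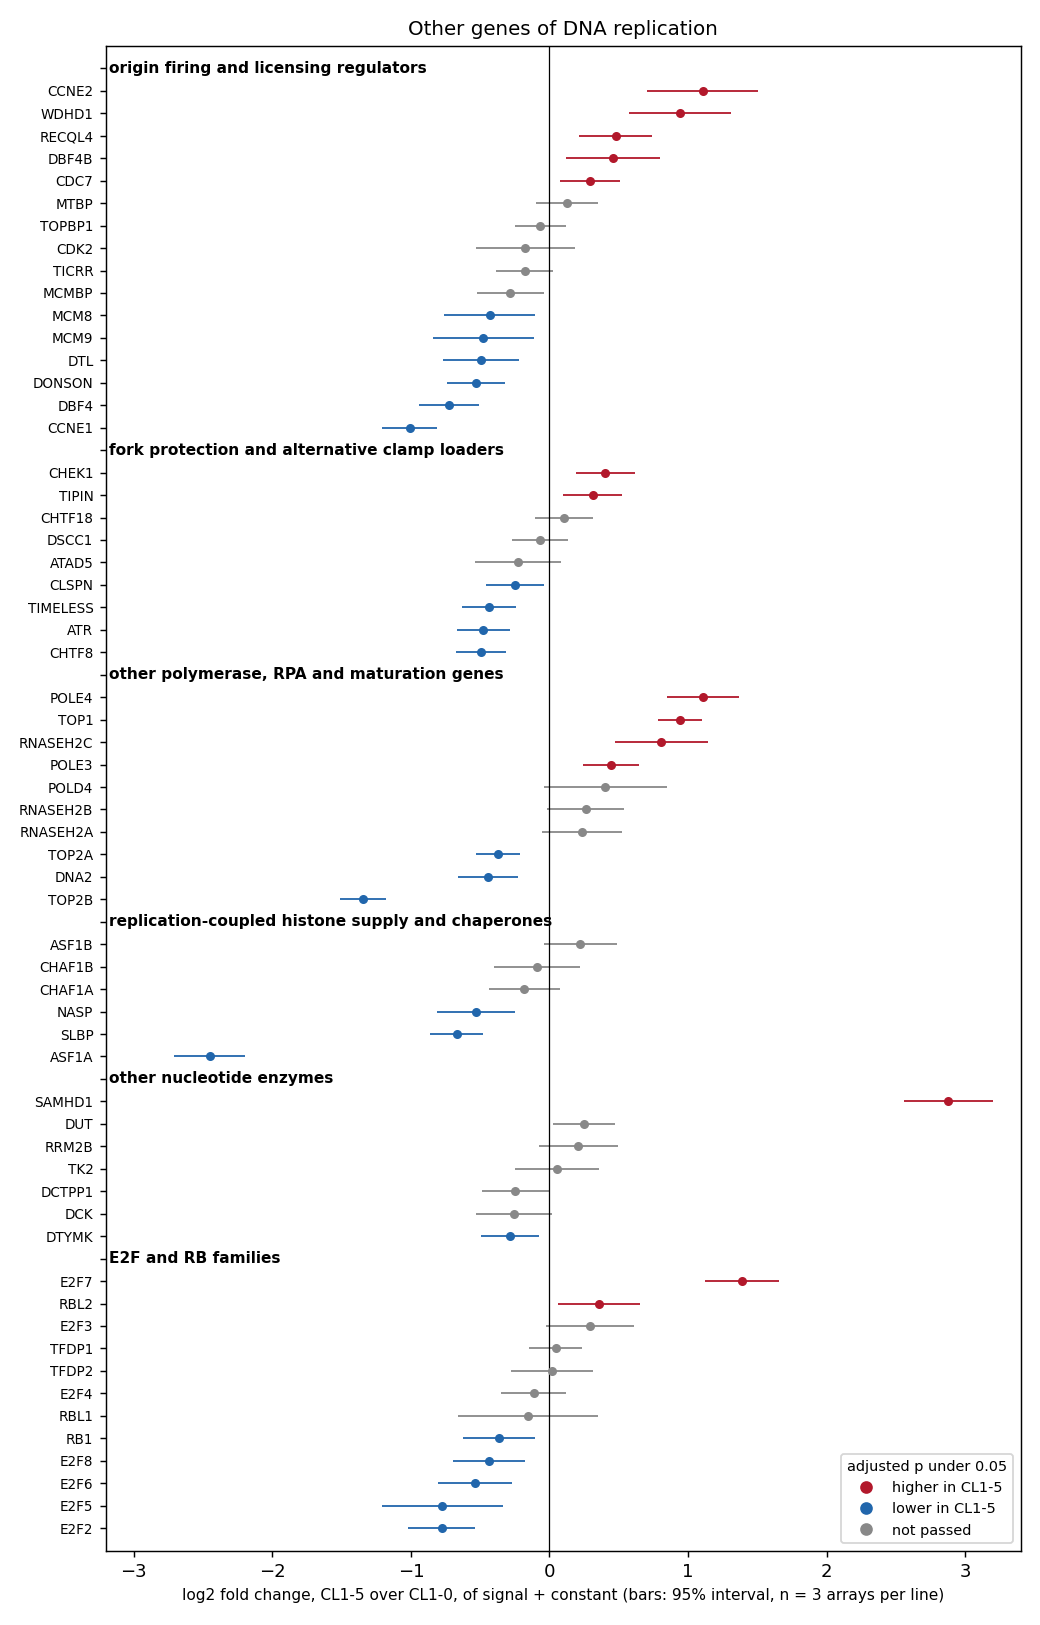
Log2 fold change of CL1-5 over CL1-0 for 60 other replication genes in 6 lists, with 95% intervals from limma (n = 3 arrays per line). Most points lie within 1 of 0, while SAMHD1 at 2.88 and ASF1A at -2.45 stand far out.

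With arrays paired by number, the median log2 fold change of the 46 members was -0.13, -0.02 and 0.05 in repeats 1, 2 and 3. In repeats 1 and 2 alone, 13 members were higher and 15 lower (60.9%), with 3580 and 4645 of 14922 genes (55.1%). Without CL1-5 repeat 2 the number of members higher was 9, against 15 with all arrays. Of all genes, 2944 were then higher, against 3448 with all arrays. The 7 calls that leaving out 1 array could end all had log2 fold changes under 0.39 in size (ORC3, MCM7, PCNA, POLA2, POLD1, POLE2 and RPA1).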

How the data were processed

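Total RNA of 6 cultures, 3 of CL1-5 and 3 of CL1-0, was hybridised to one-colour arrays, and groups and repeat numbers came from the sample titles. The values deposited by the authors are 1 intensity per probe set, linear and already scaled. The submitters' processing notes name MAS5 for them; its version and any later step were not given in the sources used. There were 0 sample columns left unused.

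Of 54675 probe sets, 41091 had 1 gene and were used without control probe sets, 1801 had several genes and were left out, and symbols were updated through the RefSeq annotation of GRCh38.p14. The 10th percentile of the whole table, 6.85, was added before taking log2. Probe sets had to lie above the 40th percentile of an array on 3 or more of 6 arrays, and the brightest kept probe set, without suffix x where another was kept, stood for its gene. CL1-5 was set against CL1-0 by limma 3.58.1 under R 4.3.3 (lmFit, eBayes with trend), with Benjamini-Hochberg adjustment over 14828 genes and a threshold of 0.05. A separate fit covered 28152 kept probe sets. The steps were tested on simulated data.

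After subtracting each line's mean, arrays of the same number correlated at 0.475, 0.280 and 0.649, so 1 alternative fit treats equal numbers as pairs, through a block. The labels do not say that they mark a shared day. P-values measure the spread between repeats. The members, the lists and the rule for named genes were chosen with earlier results of these data known. Every member is named. Values on all arrays are given for members called with a log2 fold change of at least 0.8 in size, for POLD3 and for 9 set by name, to which MCM5, MCM6, PRIM1 and RPA3 were added after their values were seen. In each other list the 3 largest increases and decreases are named. Some, not all, genes of these lists whose result hangs on an array or probe set were added after their values were seen. Alternatives were the constant, the filter, scaling, the prior trend, array weights, probe set choice, the block, leaving out each array (with the filter then on 2 arrays), repeats 1 and 2 alone, a threshold of 0.01 and a test against a log2 change of 0.25. Protein sequences were not used here.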

Additional observations from a re-analysis of the deposited data

How the results depend on the processing

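Of 920 comparisons of a member's result with an alternative, 842 stayed on the same side of the threshold, 57 lost the call and 21 gained it. A change of direction was counted only where either result passed, and there were 0 of these. Members that did not pass could change sign, as TK1 did (-0.14 to 0.11 with 1 array left out). With an adjusted p under 0.01, 8 members were higher and 13 lower (45.7%), with 2726 and 3268 of all genes (40.4%). Against a log2 change of 0.25, 5 members were higher and 9 lower, 2312 of all genes were higher and 2697 lower, and 7 other replication genes were higher and 10 lower. Under that limit 30.4% of members and 33.8% of all genes were called, so the members' share lay below that of all genes. With array weights 22 other replication genes and 4566 of all genes were higher, and 69.4% of all genes were called in either direction. Leaving out 1 array gave 9 to 13 members higher and 13 to 15 lower, 2944 to 3413 of all genes higher and 3614 to 4264 lower, 11 to 16 other replication genes higher and 16 to 21 lower, and a member median of -0.093 to 0.024. The cause was not tested, beyond the stricter limit or fewer arrays of these settings. Pairing the arrays by number, as a replicate block, gave 16 members higher and 17 lower (71.7%), with 4145 and 5149 of all genes (62.7%), and it changed no other member's call than those of CDT1, GINS3, RPA3 and FEN1. The shorter letters GGCGC or CGCGC were in 95% of member promoters, against 76.4% of genes tested, since shorter words match more often. With any listed start the narrower E2F letters were in 45% of member promoters, against 9.43% of genes tested. The number of arrays, 3 per line, limits the precision, with standard errors of 0.072 to 0.212 for members, and members that did not pass had log2 fold changes of up to 0.25 in size. The wider E2F letters and the use of any listed start were chosen after seeing the data.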

Other observations

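Members were also set beside their neighbours, the 5 tested genes on either side along the chromosome in the RefSeq order of GRCh38.p14, a comparison added after the data were seen. Of 29 called members 21 had the sign of their neighbours' median log2 fold change of CL1-5 over CL1-0, where 63.4% of 7639 called genes did. RFC1 (-0.85) lay among 10 neighbours with a median of -0.65, of which 9 were lower in CL1-5 and 0 higher. MCM10 (-0.64) lay among neighbours with a median of -1.05, 8 lower and 1 higher, and TYMS (-0.58) among neighbours with a median of -0.33, 8 lower and 0 higher. MCM3 (0.80) and PCNA (0.31) lay among neighbours with medians of 0.59 and 0.51, of which 7 were higher in each case. By contrast CDC6 (-1.38) lay among neighbours with a median of 0.27, POLD3 (-0.68 through its brightest probe set) among neighbours with a median of 0.27, and RRM1 (-0.94) among neighbours with a median of -0.02. Over all 46 members the neighbour medians ran from -1.05 to 0.59. The part of gene position in the results was not tested.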
